A study of Mus musculus with 9 samples.

Results

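Primary mouse lung endothelial cells (MLEC) labelled as lacking JNK1 and JNK2 were compared with MLEC from Cre-positive controls by RNA-seq. The comparison takes 6 of the 9 libraries of the series, 3 labelled E3KO and 3 labelled ECtrl, and was made across 10458 of 33353 gene symbols that name a single locus, those whose mean reached 2 FPKM in at least 1 group. FPKM is the number of sequenced fragments scaled to the length of the transcript and to the depth of the library. Both groups carry Cdh5-Cre, a Cre transgene driven by the promoter of the endothelial cadherin gene, and both are Jnk3-/-, so neither can make JNK3. ECtrl mice are Cdh5-Cre+ Jnk1+/+ Jnk2+/+ Jnk3-/-, and E3KO mice are Cdh5-Cre+ Jnk1LoxP/LoxP Jnk2LoxP/LoxP Jnk3-/-. The comparison therefore holds Cre expression and JNK3 loss constant, and leaves the LoxP alleles of Jnk1 and Jnk2 and their deletion as the labelled difference. The remaining 3 libraries, EfCtrl (Cdh5-Cre- Jnk1LoxP/LoxP Jnk2LoxP/LoxP Jnk3-/-), were compared with neither group, and entered the estimate of the spread between libraries and the views of all 9 libraries together. All mice were C57BL/6J adults of 10 to 12 weeks. Each library came from a separate isolation that pooled the lungs of several mice, and the cells had been selected with anti-ICAM2 beads and grown in culture.

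JNK is a stress-responsive MAP kinase. It is switched on by the MAP2 kinases MKK4 and MKK7, which are themselves switched on by MAP3 kinases, and it phosphorylates c-Jun and related members of the AP-1 family of transcription factors. In endothelium the pathway is known for its parts in cell migration, vessel branching and inflammatory gene expression. Jnk1, Jnk2 and Jnk3 are the genes Mapk8, Mapk9 and Mapk10. In bulk RNA, fewer cells of a type and less RNA per cell cannot be told apart, and this holds for every program described here.

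Some libraries stood apart, and 1 labelled E3KO had Mapk8 above every ECtrl library. Mapk8 (chr14:33377898-33447158, mm10) was at 17.0, 15.0 and 17.9 FPKM in ECtrl replicates 1 to 3 and at 20.7, 8.77 and 4.65 FPKM in E3KO replicates 1 to 3. The library labelled E3KO replicate 1 thus had more Mapk8 than any ECtrl library, while both other E3KO libraries lay below all of them. The Mapk8 change was -0.73 ± 0.40 (log2 scale, SE; limma adjusted p = 0.35) with all 3 E3KO libraries and -1.24 ± 0.22 (adjusted p = 0.0441) without replicate 1. Mapk9 (chr11:49846751-49886421) was at 44.1, 50.9 and 47.9 FPKM in ECtrl and 27.6, 35.1 and 20.7 FPKM in E3KO, a mean of 47.6 ± 3.42 against 27.8 ± 7.21 FPKM (SD, n = 3 each). All 3 E3KO libraries lay below all 3 ECtrl libraries for Mapk9, and the change of -0.79 ± 0.18 reached an adjusted p of 0.0603. By exact two-sided permutation test over the 6 libraries p was 0.1 for Mapk9, the smallest that 3 against 3 can give, and 0.4 for Mapk8. Mapk10 was at most 0.242 FPKM in any of the 6 libraries. A value over a whole gene also takes reads from exons outside the deleted part, so it does not measure how complete the deletion was.

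The library labelled E3KO replicate 1 differed in other ways too. Its FPKM summed to 9841812, against 691277 to 908401 in the other 5 libraries compared, and its 10 most abundant symbols held 96.4% of that sum. With symbols of a mean of 5000 FPKM or more over the 9 libraries left out, it summed to 420517, within the 388537 to 433172 of the other libraries, so the excess lay in a few symbols such as Gm12563 and Mir5105. On the first principal component of the 9 libraries it lay at 73.7, with the other 8 between -31.9 and 4.16. ECtrl replicate 1 lay apart on the second component, at 46.0, with the other ECtrl libraries at -1.67 and -3.36. For these reasons values without E3KO replicate 1 are given for many of the calls below, and the dependence on ECtrl replicate 1 is stated with the counts.

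**Figure D1:**
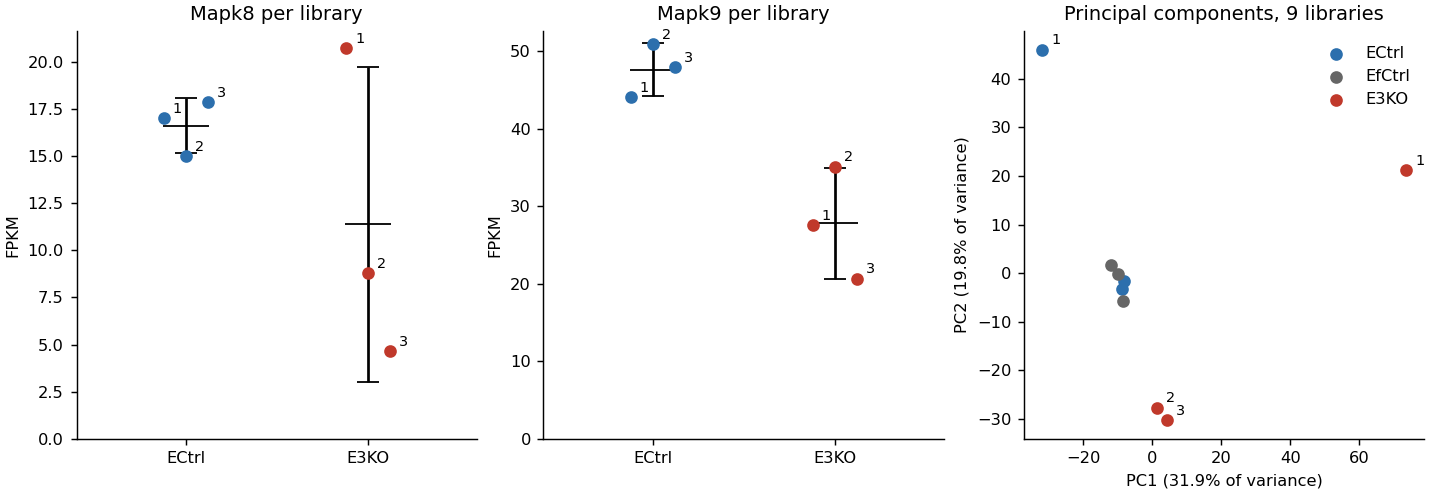
Left and middle, Mapk8 and Mapk9 in FPKM for each ECtrl and E3KO library (points, numbered by replicate) with the group mean and SD (horizontal line and bars, n = 3). Right, the first 2 principal components of log2(FPKM + 1) over the 9 libraries. E3KO replicate 1 sits above every ECtrl library for Mapk8 and far to the right on the first component.

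Of 26 listed kinases, scaffolds and phosphatases of the pathway, 18 passed the expression minimum and none was called, where a call means a limma adjusted p under 0.05 and an absolute log2 change of at least 0.5. Their median change was -0.15, beside -0.08 over all 10458 genes, of which 2.37% were called, and it was -0.08 without E3KO replicate 1, beside -0.06 over all genes. In 3 of the 18 (16.7%), Mapk9, Map3k1 and Dusp16, every E3KO library lay below every ECtrl library with a change of at least 0.5, beside 8.07% of all genes. Map4k4, an upstream kinase, was at 152, 167 and 176 FPKM in ECtrl and 176, 207 and 205 FPKM in E3KO (log2 change 0.25, adjusted p = 0.254). Spag9, which encodes the scaffold JIP4, was at 73.7 to 122 FPKM in ECtrl and 94.9 to 111 FPKM in E3KO (0.02, adjusted p = 0.95). Of the AP-1 and immediate early genes, 10 of 21 passed the minimum, and Klf6, a zinc finger factor of the immediate early class, was the only call, while 3 (30%), Klf6, Jun and Klf4, lay below in every library. Klf6 stood at 85.8, 94.2 and 80.4 FPKM in ECtrl and 49.8, 61.4 and 56.5 FPKM in E3KO, and fell by 0.63 ± 0.11 (adjusted p = 0.0352). The groups did not overlap for Klf6. Jun itself was at 14.7, 11.4 and 13.2 FPKM in ECtrl and 7.14, 9.24 and 8.15 FPKM in E3KO, without overlap, but its change of -0.62 had an adjusted p of 0.0574. Ier3, a stress-induced survival gene and the most abundant member, was at 59.4 to 79.0 FPKM in ECtrl and 76.5 to 81.8 FPKM in E3KO (0.24, adjusted p = 0.352).

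The letters TGANTCA, the binding motif of AP-1, were looked for on both strands of RefSeq promoter windows (GRCm38.p6, 250 bases before to 50 after the transcript start). Windows were found for 8140 of the 10458 genes, 77.8%, and for 72 of the 90 genes that rose and 120 of the 158 that fell. With windows for only 75.9% of the genes that fell, the shares describe those windows and no more. TGANTCA occurred in 5.56% of the windows of genes that rose, 8.33% of those that fell and 4.6% of all windows. The related cyclic AMP response element TGACGTCA occurred in 0%, 1.67% and 3.33%, and TGGGAA, the core motif of the Notch effector RBPJ, in 16.7%, 20.8% and 22.5%. The sequences below are the 250 bases upstream of the start for the 2 largest rises and the 2 largest falls that hold TGANTCA there, with the match in capitals. All 4 had an adjusted p above 0.05 without E3KO replicate 1 (0.0527 for Selp, 0.0552 for Hmgcll1, 0.0517 for Fgl2 and 0.073 for Fam180a). Selp (chr1:164115014-164115263, plus strand) has it 139 bases before the start, Hmgcll1 (chr9:76014727-76014976, plus strand) 186 bases, Fgl2 (chr5:21372423-21372672, plus strand) 16 bases and Fam180a (chr6:35326142-35326391, minus strand) 48 bases before it.
Selp: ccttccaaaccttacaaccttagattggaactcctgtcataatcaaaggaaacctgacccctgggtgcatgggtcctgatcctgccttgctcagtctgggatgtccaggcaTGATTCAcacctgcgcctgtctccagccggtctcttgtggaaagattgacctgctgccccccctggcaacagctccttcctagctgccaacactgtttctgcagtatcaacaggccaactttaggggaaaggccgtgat
Hmgcll1: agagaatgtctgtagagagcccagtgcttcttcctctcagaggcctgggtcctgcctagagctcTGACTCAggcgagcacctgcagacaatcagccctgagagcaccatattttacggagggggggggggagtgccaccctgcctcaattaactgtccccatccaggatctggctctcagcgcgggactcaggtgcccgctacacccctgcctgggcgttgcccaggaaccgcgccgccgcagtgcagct
Fgl2: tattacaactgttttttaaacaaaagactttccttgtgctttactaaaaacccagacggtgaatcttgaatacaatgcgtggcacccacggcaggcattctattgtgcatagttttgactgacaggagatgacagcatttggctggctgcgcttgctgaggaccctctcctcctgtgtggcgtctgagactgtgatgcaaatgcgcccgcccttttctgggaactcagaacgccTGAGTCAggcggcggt
Fam180a: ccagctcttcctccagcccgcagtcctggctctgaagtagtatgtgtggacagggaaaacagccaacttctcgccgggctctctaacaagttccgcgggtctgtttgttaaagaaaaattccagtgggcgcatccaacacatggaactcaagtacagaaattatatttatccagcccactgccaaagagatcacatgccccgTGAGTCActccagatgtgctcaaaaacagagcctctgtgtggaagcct

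Across all genes, 90 rose and 158 fell in E3KO, 0.861% and 1.51% of those tested. These shares are the background for the count of calls in each list. The groups overlapped for none of these 248 calls. Changes were above 1 on the log2 scale for 54 of the rises and below -1 for 68 of the falls. The scale is log2(FPKM + 1), which understates the change of genes of low level. Of the 90 genes that rose, 48 had an ECtrl mean under 5 FPKM, against 28 of the 158 that fell. Some calls passed the expression minimum only through the group where they were high, which partly fixes their direction. Among the rises named below these include Serpina3g, Slco2a1, Smoc1, Igf2bp3, Adamts9, Tfec, Gsta3 and Slc7a11. Among the falls they include Sema3d, Sema3g, Bmp2, Fam180a, Pkd2l1 and Cenpp. Apart from any test, all 3 E3KO libraries lay above all 3 ECtrl libraries, with a change of at least 0.5, for 359 genes (3.43%), and below them for 844 (8.07%). The calls rest on the spread shared over 9 libraries. When the 6 libraries were fitted alone, limma called no gene (smallest adjusted p 0.117, with 1471 genes at an unadjusted p under 0.05), although each of the 248 kept an unadjusted p under 0.05. Without E3KO replicate 1, 78 genes rose (0.746%) and 135 fell (1.29%), of which 156 were among the 248. Without ECtrl replicate 1 there were 25 calls, all among the 248, and without E3KO replicate 3 none (1998 genes at an unadjusted p under 0.05). Of 63 called genes chosen for naming, 10 kept their calls without ECtrl replicate 1, namely Stab2, Perp, Tfpi2, Tfec, Selp, Smoc1, Tll1, Fhl1, Dkk2 and Prc1. Leaving out E3KO replicate 2 gave 100 calls, ECtrl replicate 3 gave 126, and EfCtrl replicate 1, 2 or 3 gave 53, 51 or 48. All 248 genes kept their direction in each of the fits without E3KO replicate 1, without E3KO replicate 3 and without ECtrl replicate 1. Because the groups overlapped for none of the 248, leaving out a library could not change a direction. The kept directions are therefore no measure of stability.

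**Figure D2:**
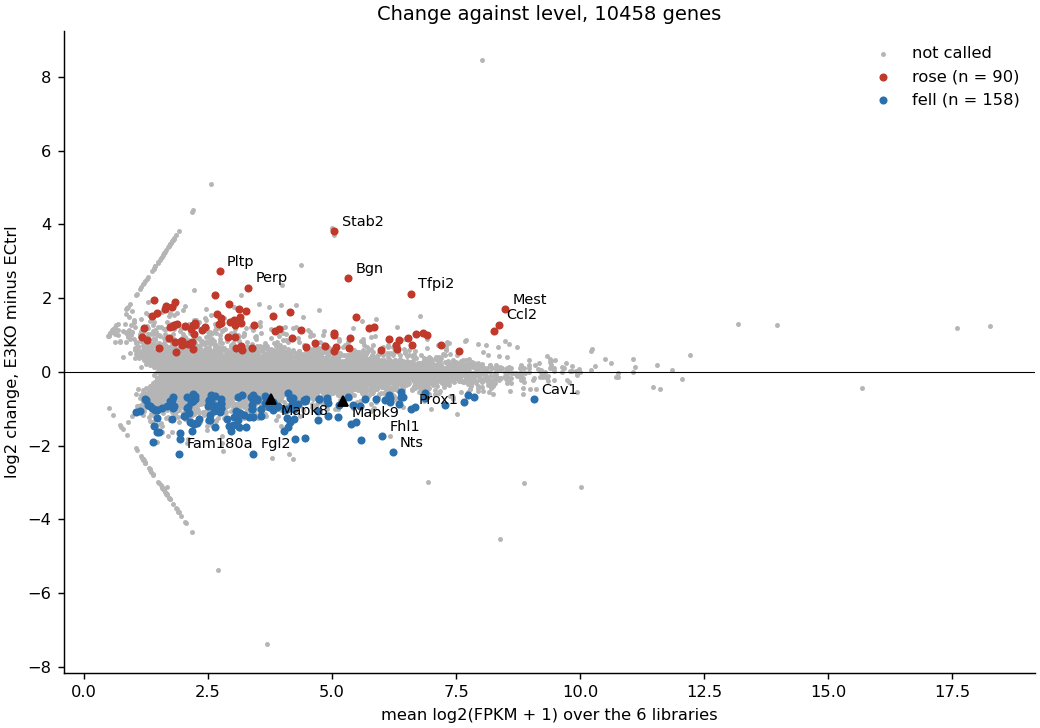
Log2 change (E3KO minus ECtrl) against the mean log2(FPKM + 1) over the 6 libraries for 10458 genes. Red points are the 90 genes called as risen, blue points the 158 called as fallen, grey points the rest, and black triangles Mapk8 and Mapk9. Stab2 is the highest red point, at 3.82.

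Among the lists, mitosis and cytokinesis had the most calls, all of them falls. These genes encode the cyclins, kinases, kinetochore and spindle proteins that a cell makes as it enters division. All 43 listed members were tested, all 43 had a change below 0, 20 fell and none rose, beside a background of 1.51% falls. Their median change was -0.92. In 32 of the 43 (74.4%) every E3KO library lay below every ECtrl library with a change of at least 0.5, beside 8.07% of all genes. Prc1, which bundles microtubules of the central spindle, was at 36.2, 27.6 and 21.9 FPKM in ECtrl and 8.75, 9.17 and 9.91 FPKM in E3KO. It fell by 1.50 ± 0.18 (adjusted p = 0.0177). The lowest ECtrl library stood well above the highest E3KO library.

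Kif2c, a kinesin that dismantles microtubules at centromeres, was at 11.2, 7.43 and 9.99 FPKM in ECtrl and 2.27, 3.46 and 2.52 FPKM in E3KO, a change of -1.49 ± 0.19. Cep55, needed for the final separation of daughter cells, went from 15.1, 10.3 and 9.86 to 3.69, 3.27 and 3.70 FPKM (-1.47 ± 0.19). Ube2c, the ubiquitin-conjugating enzyme that works with the anaphase-promoting complex, went from 84.9, 59.4 and 59.7 to 17.5, 27.5 and 29.8 FPKM (-1.43 ± 0.23). In all 3 genes the groups were apart, and the highest control value was in ECtrl replicate 1. Adjusted p was 0.0177 for Kif2c and Cep55 and 0.0259 for Ube2c. Cyclin A2 (Ccna2, -1.36), the kinases Plk1 (-1.29), Ttk (-1.29) and Aurka (-1.01), topoisomerase Top2a (-1.31) and the proliferation antigen Mki67 (-0.92) also fell. Of these, Plk1, Ttk and Top2a lost their calls without E3KO replicate 1, with adjusted p at 0.0576, 0.0545 and 0.0552. Cdk1, the kinase of mitotic entry, was at 80.4, 52.5 and 48.8 FPKM in ECtrl and 33.4, 26.8 and 28.8 FPKM in E3KO, and narrowly missed the threshold (-0.98, adjusted p = 0.0501). Bub1b (-0.14), Cks2 (-0.22) and Plk4 (-0.22) were the members nearest to 0.

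Without E3KO replicate 1 the list median was -1.01 and 17 members fell. ECtrl replicate 1 had the highest summed FPKM of the list, 988, beside 705 and 670 in the other ECtrl libraries and 440, 360 and 397 in E3KO replicates 1 to 3. Without it 2 members fell by the test, with a median of -0.82. Calls outside the list, picked after their values were seen, included 15 more genes of the spindle, kinetochore or chromosome scaffold (Aspm, Cdca2, Cdca3, Cenpp, Fam83d, Haus1, Hjurp, Itgb3bp, Kif22, Ncapd2, Nek2, Ska3, Smc4, Spag5 and Tacc3), which fell by 0.73 to 1.63, and 9 of these kept their calls without E3KO replicate 1.

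**Figure D3:**
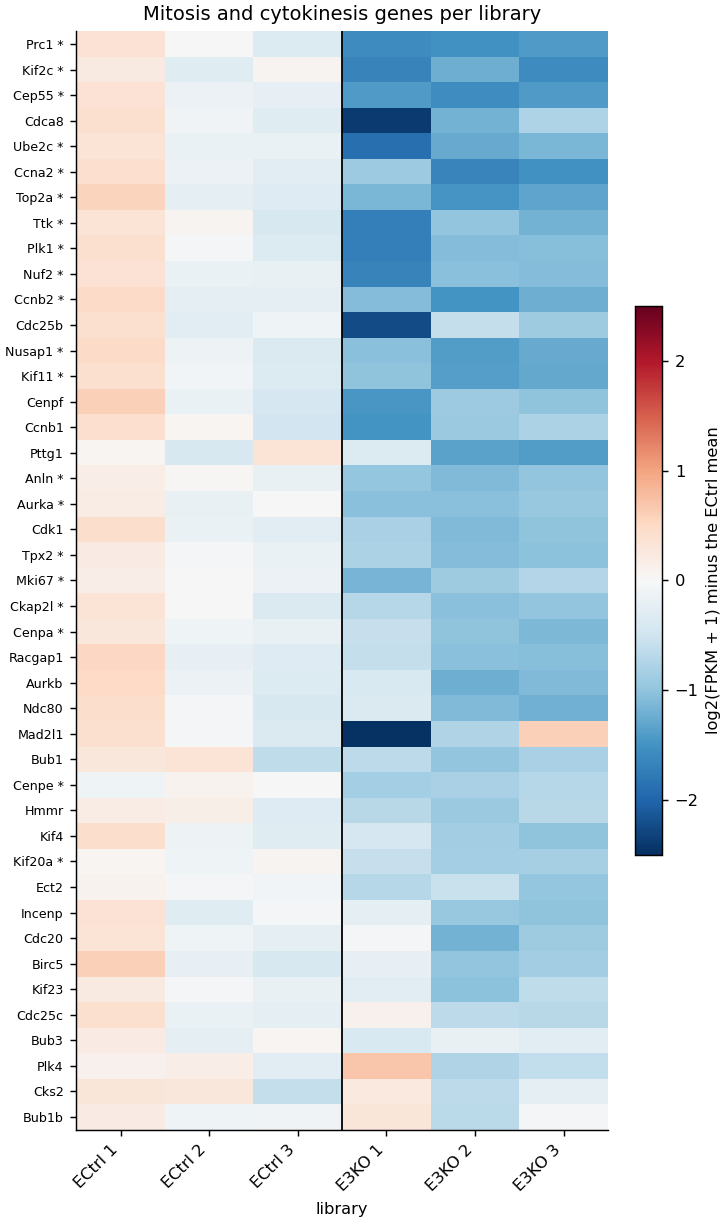
Heat map of the 43 mitosis and cytokinesis genes (rows, ordered by log2 change) in the 6 libraries (columns). Colour is log2(FPKM + 1) minus the mean of the ECtrl libraries, and an asterisk marks the 20 calls. The E3KO columns are blue for most genes, and ECtrl replicate 1 is the reddest column.

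The promoters of these genes shared a motif that was looked up after the values were seen. TTTGAA, the core of the cell cycle homology region known from promoters of mitotic genes, occurred on either strand in 68.4% of 38 windows of the list and in 77.8% of the 18 windows of its members that fell. In all 8140 windows its share was 11.7%, in genes that rose 16.7% and in genes that fell outside the list 21.6%. The match is a description of letters and not of binding. Upstream sequences of the 2 largest falls of the list that hold it are printed with the match in capitals, Kif2c (chr4:117178773-117179022, minus strand) 103 bases and Ube2c (chr2:164769679-164769928, plus strand) 29 bases before the start, both on the opposite strand. The Kif2c window belongs to 1 RefSeq start and lies inside the locus used for its FPKM, chr4:117159639-117182639, not at its outer end.
Kif2c: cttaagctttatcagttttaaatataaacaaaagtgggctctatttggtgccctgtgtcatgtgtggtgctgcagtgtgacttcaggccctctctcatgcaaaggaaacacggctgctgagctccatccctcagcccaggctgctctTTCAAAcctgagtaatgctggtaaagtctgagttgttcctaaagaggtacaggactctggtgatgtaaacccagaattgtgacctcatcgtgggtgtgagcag
Ube2c: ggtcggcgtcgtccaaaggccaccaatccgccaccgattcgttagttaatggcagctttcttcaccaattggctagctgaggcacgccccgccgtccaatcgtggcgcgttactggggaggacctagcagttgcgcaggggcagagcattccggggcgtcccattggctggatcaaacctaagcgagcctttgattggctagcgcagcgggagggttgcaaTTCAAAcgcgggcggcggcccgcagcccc

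Of 35 tested genes of DNA replication, 3 fell and 1 rose, beside 1.51% falls and 0.861% rises over all genes. A change below 0 was seen in 30, and the median was -0.46. In 12 members (34.3%) every E3KO library lay below every ECtrl library with a change of at least 0.5, beside 8.07% of all genes. In the other direction it was 1 member (2.86%), beside 3.43%. Lig1, the ligase that joins Okazaki fragments, was at 11.7, 9.87 and 14.7 FPKM in ECtrl and 5.45, 4.63 and 4.93 FPKM in E3KO (-1.11 ± 0.17, adjusted p = 0.0244). Rfc4, a clamp loader subunit, fell by 0.78 and Pcna, the sliding clamp, by 0.74, the second with an adjusted p of 0.073 without E3KO replicate 1. Pole, the catalytic subunit of DNA polymerase epsilon, went the other way, from 21.9, 19.2 and 24.6 to 38.6, 34.6 and 35.4 FPKM (0.70 ± 0.12, adjusted p = 0.0282). The groups were apart for all 4 genes. Among 21 G1 cyclins, CDK inhibitors and E2F genes, Cdkn1b, the inhibitor p27, was the only call. It fell from 27.4, 19.6 and 21.7 to 14.8, 12.0 and 13.5 FPKM (-0.72 ± 0.14, adjusted p = 0.0439). Cdkn1a, the inhibitor p21, was higher in every E3KO library (252, 332 and 375 FPKM) than in any ECtrl library (150, 195 and 224 FPKM), with an adjusted p of 0.0844. Cdk4 was at 250 to 314 FPKM in ECtrl and 227 to 283 FPKM in E3KO (-0.17).

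Of 22 tested genes of the p53 response, 2 rose and none fell (background 0.861% rises), with a median of 0.13, or 0.27 without E3KO replicate 1. Perp, a desmosome-associated membrane protein and p53 target, was at 1.89, 5.63 and 3.74 FPKM in ECtrl and 19.1, 17.6 and 27.1 FPKM in E3KO. It rose by 2.28 ± 0.30 (adjusted p = 0.0177). Mdm2, the ubiquitin ligase that holds p53 down, went from 56.5, 85.2 and 75.1 to 129, 132 and 186 FPKM (1.03 ± 0.20, adjusted p = 0.0436). Mdm2 had an adjusted p of 0.0527 without E3KO replicate 1, which left Perp as the only rise of the list. No E3KO library overlapped ECtrl for Perp or Mdm2. None of 12 BCL-2 family genes was called. Its most abundant members, the survival factors Mcl1 and Bcl2l1, were at 107 to 149 and 51.2 to 69.4 FPKM in ECtrl and at 102 to 120 and 43.1 to 47.6 FPKM in E3KO.

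Of 18 pan-endothelial markers 17 were tested, none was called, and the median was 0.03, or 0.13 without E3KO replicate 1 and -0.03 without ECtrl replicate 1. Cdh5, the endothelial cadherin, was at 613, 788 and 916 FPKM in ECtrl and 716, 943 and 853 FPKM in E3KO (0.13, adjusted p = 0.687). Emcn, a sialomucin of veins and capillaries, was at 822 to 1095 FPKM in ECtrl and at 1452 to 1557 FPKM in E3KO, apart but with an adjusted p of 0.0552. Cldn5, the tight junction protein claudin 5, went the other way, from 276, 167 and 201 to 97.5, 129 and 114 FPKM (-0.89, adjusted p = 0.0642), also apart. The summed FPKM of the list was 3878 to 4719 in ECtrl and 4573 to 5147 in E3KO.

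Lymphatic endothelial cells are specified by the transcription factor Prox1 and are found in lung isolates alongside blood vessel cells. Of 14 tested members 4 fell and none rose, beside 1.51% falls over all genes. A change below 0 was seen in 13, and the median was -0.54. In 7 members (50%) every E3KO library lay below every ECtrl library with a change of at least 0.5, beside 8.07% of all genes. Nts, neurotensin, was at 242, 130 and 124 FPKM in ECtrl and 58.7, 37.0 and 18.1 FPKM in E3KO (-2.17 ± 0.43, adjusted p = 0.0417). Prox1 was at 158, 120 and 131 FPKM in ECtrl and 58.1, 79.2 and 64.7 FPKM in E3KO (-1.01 ± 0.16, adjusted p = 0.0259). Both genes had all E3KO libraries below all ECtrl libraries.

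Sema3d, a secreted guidance cue, fell from 12.1, 4.78 and 3.81 to 0.989, 1.14 and 0.970 FPKM (-1.81, adjusted p = 0.0439), and Reln, the matrix glycoprotein reelin, from 75.5, 50.2 and 69.9 to 34.7, 33.4 and 32.7 FPKM (-0.92, adjusted p = 0.0385). Not every lymphatic gene followed. Lyve1, a hyaluronan receptor and the most abundant member, had a change of -0.14 (adjusted p = 0.549), and Flt4, the VEGF-C receptor, one of -0.06. Without E3KO replicate 1, Nts and Prox1 kept their calls, Sema3d (0.0732) and Reln (0.0581) did not, and the median was -0.62. Without ECtrl replicate 1 no member was called, with a median of -0.40.

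Arterial genes gave 3 falls and no rise among 17 tested, beside 1.51% falls over all genes. Their median was -0.18, and it was -0.06 without E3KO replicate 1, the same as over all genes in that fit. In 7 members (41.2%) every E3KO library lay below every ECtrl library with a change of at least 0.5, beside 8.07% of all genes. Hey1, a Notch target and transcriptional repressor, was at 10.8, 7.77 and 5.91 FPKM in ECtrl and 2.05, 2.99 and 2.91 FPKM in E3KO (-1.30 ± 0.20, adjusted p = 0.0244). Sema3g, a secreted semaphorin of arteries, was at 2.04, 1.44 and 2.77 FPKM in ECtrl and at 0.371, 0.527 and 0.354 FPKM in E3KO (-1.10, adjusted p = 0.0259). Tm4sf1, a tetraspanin-like protein of endothelial cells, fell from 311, 298 and 265 to 169, 196 and 183 FPKM (-0.67, adjusted p = 0.0282). All 3 kept their calls without E3KO replicate 1 and lost them without ECtrl replicate 1, where adjusted p was 0.0601 for Hey1, 0.101 for Sema3g and 0.0979 for Tm4sf1. Hey1 was the only call among 22 Notch pathway genes, whose median was -0.18, or -0.12 without E3KO replicate 1. In 5 of the 22 (22.7%, beside 8.07% of all genes) every E3KO library lay below every ECtrl library, namely Hey1, Dtx1, Dll4, Maml2 and Notch2. Dtx1, a ubiquitin ligase that modulates Notch, had the lowest change, -1.91, with an adjusted p of 0.0633. The abundant members of that list, the shedding protease Adam10 and the gamma-secretase subunit Ncstn, were at 172 to 210 and 69.7 to 95.9 FPKM in ECtrl and at 154 to 188 and 75.3 to 91.1 FPKM in E3KO.

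Of 8 venous and sinusoidal genes, 2 rose and none fell, beside 0.861% rises over all genes. Stab2, a scavenger receptor of sinusoidal endothelium (chr10:86839094-87028015), had the largest rise of all calls. It was at 5.30, 6.48 and 13.3 FPKM in ECtrl and 139, 106 and 126 FPKM in E3KO, a 14.8-fold ratio of means (3.82 ± 0.27, adjusted p = 0.00445). Selp, P-selectin, went from 15.9, 33.7 and 30.6 to 74.2, 64.6 and 82.4 FPKM (1.49 ± 0.25, adjusted p = 0.0287), at a locus that overlaps F5. Without E3KO replicate 1 Selp had a limma adjusted p of 0.0527, which left Stab2 as the only rise of the list. Tip cell genes (20 tested), lung capillary genes (10), VEGF ligands and receptors (9) and the angiopoietin and Tie system (5) had no call. Every E3KO library lay above every ECtrl library, with a change of at least 0.5, for 5 tip cell genes (25%), Esm1, Apln, Igfbp3, Ednrb and Cd34, and for 3 capillary genes (30%), Apln, Ednrb and Cd36, beside 3.43% of all genes. In the other direction it was 2 tip cell genes (10%), Angpt2 and Dll4, and 1 capillary gene (10%), Cxcr7, beside 8.07%. VEGF genes had 1 each way, Flt1 above and Pgf below, and of the angiopoietin and Tie genes Angpt2 lay below. Angpt2, a destabilising ligand of the Tie2 receptor and the most abundant tip cell gene, was at 1029 to 1340 FPKM in ECtrl and 704 to 876 FPKM in E3KO, apart but with an adjusted p of 0.0979. Cd34 was at 179 to 313 FPKM in ECtrl and 402 to 416 FPKM in E3KO (adjusted p = 0.123). The VEGF receptor 1 ligand Pgf was at 193 to 253 FPKM in ECtrl and 118 to 158 FPKM in E3KO (-0.69, adjusted p = 0.0501), and its co-receptor family member Nrp2 had a change of 0.05. Tie1 was at 105 to 140 and 94.2 to 125 FPKM, and the capillary genes Plvap and Apln at 447 to 772 and 79.0 to 182 FPKM in ECtrl and 470 to 513 and 187 to 215 FPKM in E3KO.

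**Figure D4:**
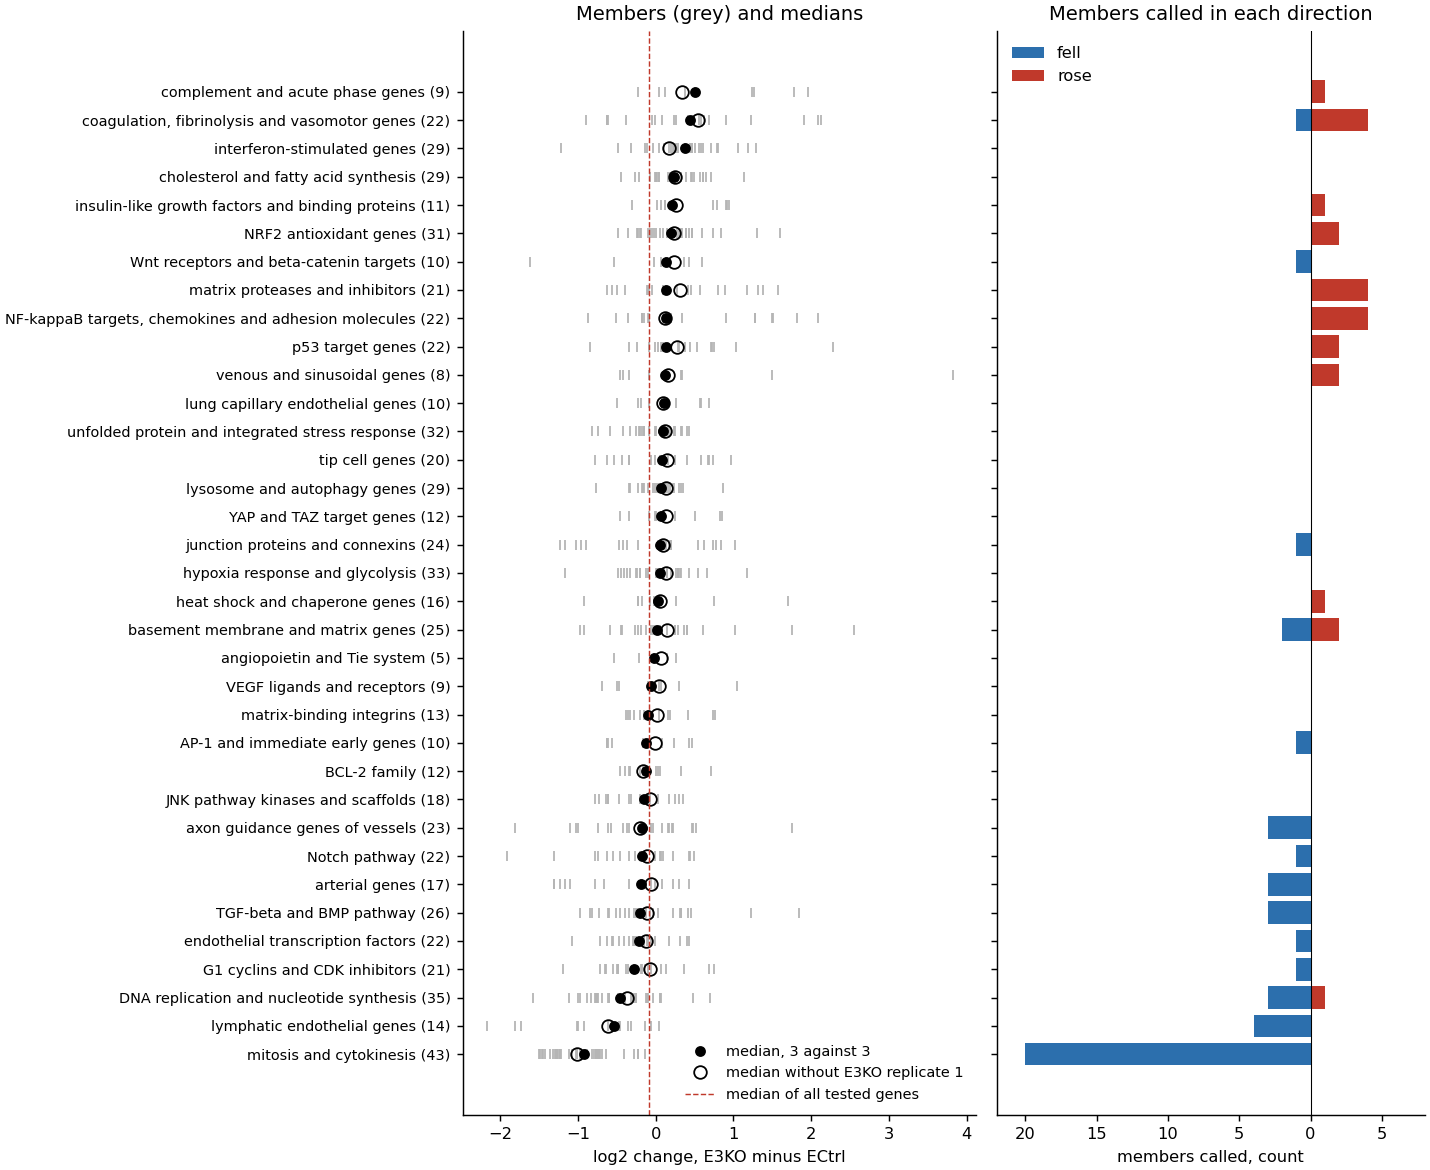
Left, log2 change of each tested member (grey ticks) and the median of each program, with all libraries (filled) and without E3KO replicate 1 (open), for the program lists with at least 5 tested genes (number in brackets). The dashed line is the median of all genes, -0.08. Right, the number of members called in each direction. Mitosis has 20 falls and no rise, and most lists have 0 to 4 calls.

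Of 22 tested NF-kappaB targets, chemokines and adhesion molecules, 4 rose and none fell, beside 0.861% rises over all genes. The list median was 0.13, close to 0. In 7 members (31.8%) every E3KO library lay above every ECtrl library with a change of at least 0.5, beside 3.43% of all genes. In the other direction it was 1 member (4.55%), beside 8.07%. Without ECtrl replicate 1 the list had 1 rise, Selp, and no fall. Icam1, the adhesion receptor for leukocyte integrins, was at 5.02, 8.38 and 9.29 FPKM in ECtrl and 28.1, 18.8 and 21.9 FPKM in E3KO (1.50 ± 0.23, adjusted p = 0.0244), at a locus that overlaps Icam4 and Icam5. Ptgs2, which encodes cyclooxygenase 2, was at 0.583, 2.93 and 3.44 FPKM in ECtrl and 11.4, 9.16 and 15.9 FPKM in E3KO (2.09 ± 0.38, adjusted p = 0.0342). Ccl2, the monocyte chemoattractant, was at 144, 269 and 239 FPKM in ECtrl and 537, 482 and 514 FPKM in E3KO (1.28 ± 0.26, adjusted p = 0.0464). Every E3KO value of the 3 genes exceeded every ECtrl value, and ECtrl replicate 1 was the lowest in each. Vcam1 (-0.09), Nfkbia (0.15) and Nfkb1 (0.13) were near 0. Without E3KO replicate 1, Icam1 alone of the 4 kept an adjusted p under 0.05 (0.0441), while the changes were 2.11 for Ptgs2, 1.48 for Selp and 1.24 for Ccl2.

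Coagulation and vasomotor genes gave 4 rises and 1 fall among 22, beside 0.861% rises and 1.51% falls over all genes. Their median was 0.44, or 0.29 without ECtrl replicate 1, where 1 rise, Tfpi2, and no fall were called. In 8 members (36.4%) every E3KO library lay above every ECtrl library with a change of at least 0.5, beside 3.43% of all genes. In the other direction it was 2 members (9.09%), beside 8.07%. Tfpi2, a protease inhibitor of the matrix, was at 31.9, 66.4 and 42.6 FPKM in ECtrl and 187, 186 and 226 FPKM in E3KO (2.12 ± 0.24, adjusted p = 0.0177). Tfpi, the inhibitor of the tissue factor pathway, went from 58.7, 67.2 and 61.6 to 102, 94.3 and 94.1 FPKM (0.62 ± 0.11, adjusted p = 0.0331). Slco2a1, the prostaglandin transporter, was at 0.338, 0.978 and 1.33 FPKM in ECtrl and at 4.89, 4.89 and 8.38 FPKM in E3KO (1.91 ± 0.27, adjusted p = 0.0192). These 3 and Ptgs2 rose without overlap, and Slco2a1 passed the expression minimum only through its E3KO mean. The fall was Ece1, which activates endothelin, from 180, 219 and 234 to 112, 118 and 106 FPKM (-0.90 ± 0.15, adjusted p = 0.0259). The gene of its substrate, Edn1, was at 72.6 to 119 FPKM in ECtrl and 141 to 186 FPKM in E3KO, with an adjusted p of 0.0616.

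Interferon-stimulated genes showed no call among 29, with a median of 0.38 that fell to 0.18 without E3KO replicate 1. B2m, the light chain of class I MHC, was at 1635 to 1981 FPKM in ECtrl and 1389 to 1876 FPKM in E3KO, and Bst2, tetherin, at 197 to 276 and 218 to 318 FPKM. Of 9 complement and acute phase genes 1 rose, beside 0.861% rises over all genes. Their median was 0.51, or 0.34 without E3KO replicate 1. In 4 members (44.4%) every E3KO library lay above every ECtrl library with a change of at least 0.5, beside 3.43% of all genes. The call was Serpina3g, a serine protease inhibitor, from 0.258, 0.704 and 0.139 to 8.28, 1.75 and 4.54 FPKM (1.95 ± 0.39, limma adjusted p = 0.0435). Without E3KO replicate 1 its change was 1.54, with a limma adjusted p of 0.0525. Serpina3g passed the expression minimum only through its E3KO mean. The abundant members were Ptx3 (0.04) and Cd55 (0.51, adjusted p = 0.0847), a brake on complement.

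Matrix genes were divided. Of 25 basement membrane and matrix genes 2 rose and 2 fell, beside 0.861% rises and 1.51% falls over all genes. Their median was 0.02, or 0.14 without E3KO replicate 1 and -0.07 without ECtrl replicate 1. Bgn, the small proteoglycan biglycan, was at 8.31, 21.4 and 20.8 FPKM in ECtrl and 85.8, 80.4 and 127 FPKM in E3KO (2.54 ± 0.41, adjusted p = 0.0259). Smoc1, a calcium-binding matrix protein and BMP antagonist, went from 0.539, 0.804 and 1.30 to 5.51, 4.80 and 5.54 FPKM (1.76 ± 0.18, adjusted p = 0.0177). Both were clear of overlap, and Smoc1 passed the expression minimum only through its E3KO mean. Fbn1, fibrillin 1, fell from 9.13, 7.01 and 8.15 to 3.56, 3.78 and 3.55 FPKM (-0.97), and Col15a1, a basement membrane collagen, from 6.39, 5.92 and 8.12 to 3.99, 2.80 and 2.65 FPKM (-0.92). Among 21 matrix proteases and inhibitors 4 rose and none fell, beside 0.861% rises over all genes. They were Tll1, a BMP1-like protease (1.58, adjusted p = 0.0177), Mmp28 (1.32, adjusted p = 0.0177), and the aggrecanase-family members Adamts5 (1.17, adjusted p = 0.0366) and Adamts9 (0.80, adjusted p = 0.0408, and 0.0552 without E3KO replicate 1). Adamts9 passed the expression minimum only through its E3KO mean. Mmp28 rose from 3.81, 6.16 and 4.35 to 15.9, 11.7 and 12.4 FPKM. The matrix-binding integrins had no call among 13. Itgb1, their common beta subunit, was at 433 to 562 FPKM in ECtrl and 381 to 460 FPKM in E3KO, and Itga6, a laminin receptor chain, at 171 to 219 and 143 to 201 FPKM.

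Of 26 tested TGF-beta and BMP pathway genes 3 fell and none rose, beside 1.51% falls over all genes. Their median was -0.20, or -0.11 without E3KO replicate 1. Bmp2 was at 3.70, 3.12 and 4.82 FPKM in ECtrl and 1.91, 1.14 and 1.37 FPKM in E3KO (-0.98 ± 0.17, adjusted p = 0.0287). Tgfb2 was at 16.1 to 19.2 FPKM in ECtrl and 7.66 to 11.9 FPKM in E3KO (-0.82 ± 0.16, adjusted p = 0.0388). Ltbp1, which stores latent TGF-beta in the matrix, went from 8.23, 8.18 and 7.72 to 3.45, 4.66 and 4.09 FPKM (-0.84 ± 0.15, adjusted p = 0.036). In these genes too the groups were apart. Ltbp1 had an adjusted p of 0.0576 without E3KO replicate 1, and none of the list was called without ECtrl replicate 1. Of 23 guidance genes 3 fell, beside 1.51% of all genes. They were Sema3d and Sema3g, given above, and Ephb1, an Eph receptor (-1.02, adjusted p = 0.0335). Of 10 tested genes of the Wnt list and 24 of the junction list 1 each fell and none rose, beside 1.51% falls over all genes. In the Wnt list it was Dkk2, a secreted Wnt antagonist, from 17.2, 11.2 and 10.2 to 3.14, 4.45 and 2.88 FPKM (-1.61 ± 0.21, adjusted p = 0.0177). In the junction list it was the connexin Gjc1 (-1.02, adjusted p = 0.0259). Every E3KO library lay below every ECtrl library, with a change of at least 0.5, for 2 Wnt (20%) and 5 junction genes (20.8%), beside 8.07% of all genes. In the other direction it was 1 (10%) and 3 (12.5%), beside 3.43%. Among the abundant members of these lists, Fzd6, a Wnt receptor, had a change of -0.54 (adjusted p = 0.0501), Ccnd1, a beta-catenin target, 0.07, and Ctnnb1, beta-catenin, 0.10.

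In the remaining regulator lists, Klf6 was the only call among 22 endothelial transcription factors, where Erg (-0.06) and Sox18 (-0.16) were the most abundant. YAP and TAZ targets had no call among 12, with Ctgf at 119 to 195 FPKM in ECtrl and 236 to 316 FPKM in E3KO (0.83, adjusted p = 0.0596) and Fstl1 at -0.45. Of 11 insulin-like growth factor genes 1 rose, beside 0.861% rises over all genes, and 10 had a change above 0. In 4 (36.4%) every E3KO library lay above every ECtrl library with a change of at least 0.5, beside 3.43% of all genes. The call was Igf2bp3, an RNA-binding protein of fetal tissue (0.92 ± 0.13, adjusted p = 0.0214). Igf2bp3 passed the expression minimum only through its E3KO mean. The abundant Igfbp7 (-0.31) and Igfbp4 (0.12) were not called. NRF2 antioxidant genes gave 2 rises and no fall among 31, with a median of 0.20, beside 0.861% rises over all genes. These were Gsta3, a glutathione transferase, from 0.688, 0.435 and 0.639 to 5.01, 2.80 and 3.79 FPKM (1.59 ± 0.28, adjusted p = 0.0315), and Slc7a11, the cystine transporter, from 0.765, 1.77 and 1.59 to 3.59, 4.69 and 6.34 FPKM (1.31 ± 0.24, adjusted p = 0.0366). For both genes the lowest E3KO library was above the highest ECtrl library. Both passed the expression minimum only through their E3KO mean. Gsta3 had an adjusted p of 0.0568 without E3KO replicate 1.

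Cryab, a small heat shock protein, rose from 2.64, 3.42 and 5.97 to 13.6, 12.3 and 18.7 FPKM (1.70 ± 0.31, adjusted p = 0.036), the only call among 16 chaperone genes. Its adjusted p was 0.0576 without E3KO replicate 1, and the list then had no call. The abundant chaperones Hsp90ab1 (0.00) and Hsph1 (-0.07) did not pass the test. There was no call among 29 cholesterol and fatty acid synthesis genes (median 0.24, with Acly at 0.04 and Scd2 at -0.22), 33 hypoxia and glycolysis genes (median 0.05, with Pkm at 0.54 and Ndrg1 at -0.44), 32 genes of the unfolded protein response (median 0.10, with Calr at 0.17 and Hsp90b1 at 0.09) or 29 lysosome and autophagy genes (median 0.07, with Ctsl at 0.09 and the merged locus of Ctsd and Ifitm10 at 0.15). The medians of the hypoxia and lysosome lists were both 0.13 without E3KO replicate 1, and 0.02 and 0.03 without ECtrl replicate 1. Of the 29 cholesterol and fatty acid genes 24 had a change above 0, and 1 rose without E3KO replicate 1. In 5 of them (17.2%, beside 3.43% of all genes) E3KO lay above ECtrl in every library with a change of at least 0.5.

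The largest changes among the calls included genes outside these programs, while 102 genes that were not called had an absolute log2 change of 2 or more. Pltp, the phospholipid transfer protein, was at 0.261, 1.57 and 4.31 FPKM in ECtrl and 25.0, 10.8 and 15.6 FPKM in E3KO (2.74 ± 0.51, adjusted p = 0.0366, and 0.0667 without E3KO replicate 1), at a locus that overlaps Ctsa and Neurl2. Aim2, a sensor of cytosolic DNA, went from 1.89, 4.75 and 2.83 to 10.8, 12.6 and 17.8 FPKM (1.85, adjusted p = 0.0279), and Tfec, a transcription factor of the MiT family, from 0.319, 0.747 and 1.10 to 4.29, 4.17 and 6.31 FPKM (1.79, adjusted p = 0.0177). Tfec passed the expression minimum only through its E3KO mean. No ECtrl library reached the lowest E3KO library in Pltp, Aim2 or Tfec. With Stab2, Bgn, Perp, Tfpi2, Ptgs2, Serpina3g and Slco2a1 they make up the 10 largest rises among the calls, predicted genes and clones left out.

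The 10 largest falls that were called are given with predicted genes and clones left out. Of these, Fgl2, a secreted fibrinogen-like protein, was at 44.3, 16.1 and 14.5 FPKM in ECtrl and 6.11, 3.26 and 2.87 FPKM in E3KO (-2.23 ± 0.45, adjusted p = 0.0456, and 0.0517 without E3KO replicate 1). Fam180a went from 14.6, 4.05 and 5.87 to 0.0643, 0.911 and 1.66 FPKM (-2.21 ± 0.45, adjusted p = 0.0454), and Fxyd6, a regulator of the sodium pump, from 139, 59.0 and 86.4 to 23.1, 30.3 and 20.1 FPKM (-1.84 ± 0.33, adjusted p = 0.0335). In these 3 genes ECtrl replicate 1 was the highest library, and none kept an adjusted p under 0.05 without E3KO replicate 1. Stc1, the hormone stanniocalcin 1, fell from 34.9, 27.1 and 44.3 to 5.04, 14.1 and 10.4 FPKM (-1.82 ± 0.33, adjusted p = 0.0335).

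F2rl1, the protease-activated receptor PAR2, was at 46.9, 37.6 and 36.3 FPKM in ECtrl and 11.5, 14.0 and 7.75 FPKM in E3KO (-1.80 ± 0.22, adjusted p = 0.0177). Fhl1, a LIM domain protein, went from 148, 103 and 105 to 30.5, 45.4 and 28.3 FPKM (-1.75 ± 0.21, adjusted p = 0.0177). Pkd2l1, a cation channel, went from 7.41, 4.33 and 5.94 to 0.556, 2.01 and 1.12 FPKM (-1.66), and Cenpp, a kinetochore protein, from 4.51, 4.13 and 3.14 to 0, 0.837 and 1.13 FPKM (-1.63). The groups were apart in each, and these 4 genes and Stc1 kept their calls without E3KO replicate 1. Without ECtrl replicate 1 Fhl1 alone of the 5 kept its call (0.0481), with adjusted p at 0.0601 for F2rl1, 0.0901 for Pkd2l1 and 0.118 for Cenpp and Stc1. The Cenpp locus spans other genes of the matrix proteoglycan family, Aspn, Ecm2, Ogn and Omd, and the counting strand was not given in the sources used here. Loci named here that overlap other protein-coding genes include Prc1 (Rccd1), Ube2c (Tnnc2), Lig1 (Zswim9), Rfc4 (Eif4a2), Igf2bp3 (Malsu1), Aim2 (Cadm3), Fgl2 (Gsap), Angpt2 (Mcph1) and Cd34 (Cd46).

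**Figure D5:**
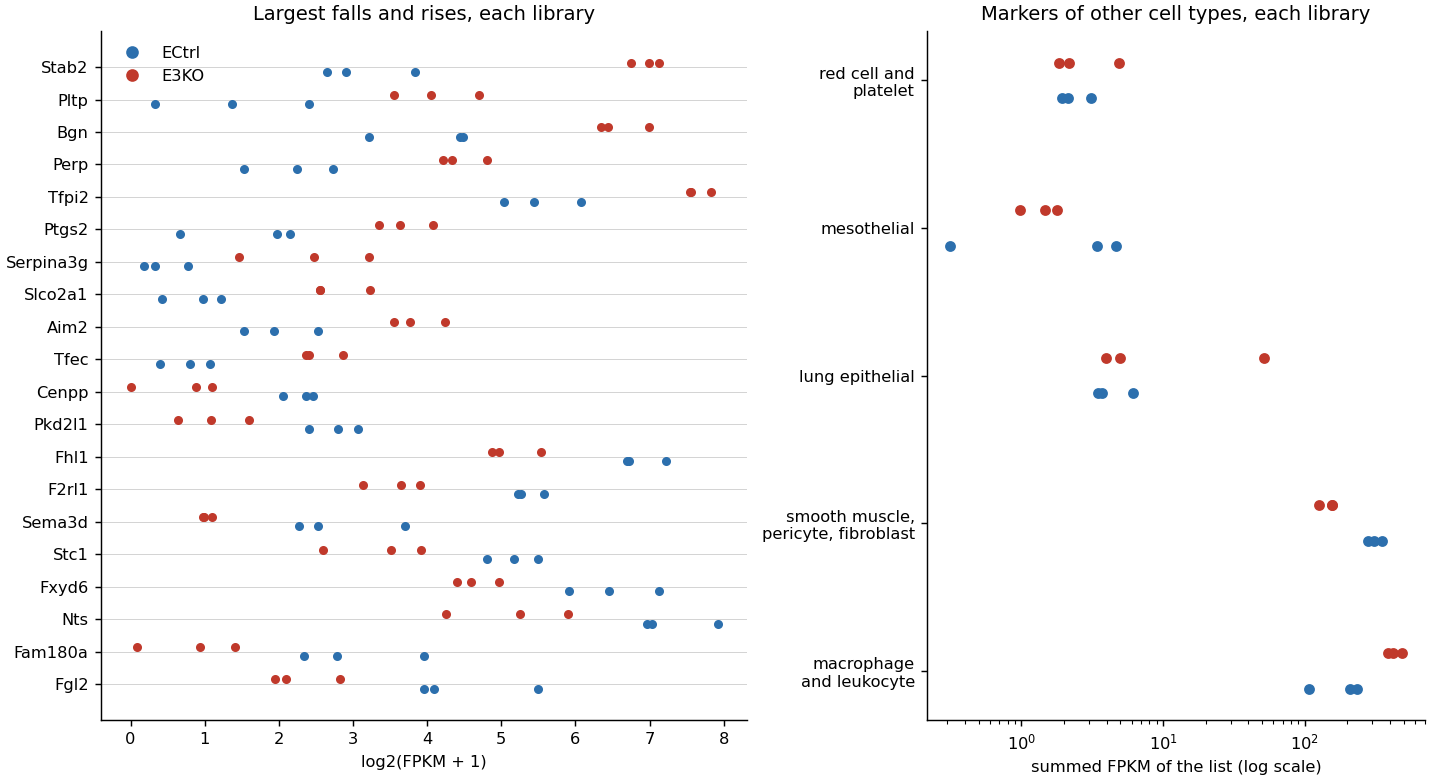
Left, log2(FPKM + 1) of the 10 largest rises and 10 largest falls among the calls, predicted genes and clones left out, in each ECtrl (blue) and E3KO (red) library. The colours do not overlap within any gene. Right, summed FPKM of marker lists of other cell types in each library, on a log axis. The macrophage and leukocyte sum is 107 to 232 in ECtrl and 385 to 485 in E3KO, and the epithelial sum is raised in 1 E3KO library, at 51.8.

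Markers of other cell types were compared as well. Of 31 macrophage and leukocyte markers 17 passed the minimum, all 17 had a change above 0, and 1 rose, Cd53, a leukocyte tetraspanin (1.35 ± 0.27, adjusted p = 0.0446, and 0.0732 without E3KO replicate 1). Without that library 1 member was called, Cd68 (1.53). The list median was 1.09, or 1.23 without E3KO replicate 1, and 11 members lay above every ECtrl library in every E3KO library with a change of at least 0.5, beside 3.43% of all genes. Cd52, Aif1, C1qb, Marco and Coro1a passed the minimum only through their E3KO mean. The minimum therefore partly fixes these tallies and the median towards rises. H2-Aa, under the minimum, was at 0.0642 to 1.06 FPKM in ECtrl and 0 to 0.693 FPKM in E3KO. Summed over the list, FPKM was 107, 232 and 208 in ECtrl and 385, 421 and 485 in E3KO. Lyz2, the lysozyme of macrophages and the most abundant member, was at 28.0, 111 and 80.5 FPKM in ECtrl and 133, 212 and 221 FPKM in E3KO (1.53 ± 0.48, adjusted p = 0.13). Fcer1g, a signalling chain of Fc receptors, was at 9.46 to 20.2 FPKM in ECtrl and 26.5 to 37.4 FPKM in E3KO, and Ctss, a lysosomal protease of antigen-presenting cells, at 4.08 to 20.9 and 28.0 to 41.1 FPKM. Itgb2, the beta chain of leukocyte integrins, was at 0.762 to 3.79 FPKM in ECtrl and 5.58 to 8.03 FPKM in E3KO, and Tyrobp, a myeloid adaptor, at 2.19 to 6.99 and 8.28 to 13.6 FPKM. The groups were apart for these 4 genes, with adjusted p from 0.0756 (Itgb2) to 0.208 (Tyrobp). Other defining markers stayed under the expression minimum, with Emr1 (F4/80) at 0.198 to 0.625 FPKM in ECtrl and 0.0493 to 1.07 FPKM in E3KO, Ptprc (CD45) at 0.0919 to 0.787 and 0.419 to 1.59 FPKM, and Csf1r at 0.406 to 1.46 and 0.737 to 2.06 FPKM. The groups overlapped for these 3 genes, and for Itgam, an integrin chain of myeloid cells also under the minimum, they were apart, at 0.156 to 0.897 and 1.66 to 1.98 FPKM. The T cell marker Cd3e was at 0 in all 6 libraries. ECtrl replicate 1 had the lowest sum of the list, and it also had the highest sum of the mitosis list and the lowest Ptgs2, Ccl2 and Selp values. The part of such cells in the rises of Ptgs2, Ccl2, Selp, Aim2, Tfec and Pltp was not tested.

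The summed FPKM of smooth muscle, pericyte and fibroblast markers was 348, 280 and 306 in ECtrl and 156, 157 and 126 in E3KO, most of it from Thy1, at 330, 227 and 261 FPKM in ECtrl and 142, 133 and 94.4 FPKM in E3KO (-1.14 ± 0.25, adjusted p = 0.0574). Without Thy1 the sums overlapped, at 18.1, 53.4 and 45.2 FPKM in ECtrl and 13.6, 23.8 and 31.1 FPKM in E3KO. Of 22 markers 7 passed the minimum, none was called, and the median was -0.91, or -0.45 without E3KO replicate 1. Col1a2 (means of 2.86 and 0.546 FPKM) and Fbln1 (3.10 and 1.33 FPKM) passed only through ECtrl. The minimum therefore partly fixes this median towards falls. Acta2 was at 4.31 to 19.4 FPKM in ECtrl and 4.49 to 6.32 FPKM in E3KO, and Tcf21 and Mfap4 were at 0 in all 6 libraries. Lung epithelial markers summed to 3.48, 3.73 and 6.16 FPKM in ECtrl and 51.8, 3.93 and 4.96 FPKM in E3KO. The high value belonged to E3KO replicate 1, where Scgb1a1, the club cell secretoglobin, was at 46.2 FPKM against 0 to 1.87 FPKM in the other 5 libraries, and Nkx2-1, Scgb3a2 and Cyp2f2 were at 0 throughout. Krt18, the other epithelial marker that passed the minimum, was at 1.15 to 3.99 FPKM in ECtrl and 1.76 to 3.25 FPKM in E3KO. Of 8 mesothelial markers none passed, with Upk1b the most abundant at a mean of 0.723 FPKM and Muc16 at 0. Red cell and platelet markers summed to at most 4.87 FPKM in any library, Pf4 being the most abundant at a mean of 1.81 FPKM, and the globins Hbb-b1, Hbb-b2, Hba-a1 and Hba-a2 and the platelet gene Gp9 were at 0. Xist was at most 0.217 FPKM and Ddx3y at 16.3 to 22.1 FPKM in all 6 libraries.

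Genes close to the targeted loci were counted separately. Within 10 Mb of Mapk8, 3 of 64 tested genes were called, 4.69%, beside 2.37% of all genes. These were Sema3g (-1.10), 2010107H07Rik (1.24, adjusted p = 0.0287, at a locus that spans Gnl3 and Pbrm1) and Fam35a (0.62, adjusted p = 0.0443). Within 10 Mb of Mapk9, 3 of 120 were called, 2.5%, namely Anxa6, a calcium-dependent membrane-binding protein (-0.70, adjusted p = 0.0428), and the neighbouring zinc finger genes Zfp692 (-0.79, adjusted p = 0.0399) and Zfp672 (-0.62, adjusted p = 0.041). Without E3KO replicate 1 the counts were 3 near Mapk8 and 4 near Mapk9, of which only Sema3g and Zfp672 were among those just named. Adjusted p was then 0.0517 for 2010107H07Rik, 0.0622 for Fam35a, 0.0658 for Anxa6 and 0.061 for Zfp692. Anxa6 was at 91.3, 78.9 and 101 FPKM in ECtrl and 50.8, 62.4 and 52.5 FPKM in E3KO, without overlap.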

How the data were processed

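RNA-seq libraries of cultured primary MLEC (3 groups of 3) were made from separate isolations. Paired-end reads were processed by the authors against mm10, and the submitters' processing notes name TopHat, Bowtie, Cufflinks 1.0.3 and Cuffdiff. The deposited tables give FPKM for every library, and these FPKM values, not counts, were used. The study's methods give read depth as an average only, and the tables give none for single libraries, so no counting interval is given. Columns of the authors' own comparisons (group FPKM, fold changes, p-values and q-values) were not used for any test. Groups were taken from the sample labels.

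Of 33355 symbols naming 1 locus, 2 lack values. Genes with a group mean of at least 2 FPKM were fitted as log2(FPKM + 1) with limma 3.58.1 in R 4.3.3, with 3 group means over 9 libraries, moderated variances and Benjamini-Hochberg adjustment over 10458 genes. The lists hold 990 entries, of which 978 matched. Named genes are the targeted genes, the 10 largest rises and falls without overlap (predicted genes and clones excluded), up to 4 calls of each list or, where fewer than 2 were called, its 2 most abundant members, the leading and absent genes of each marker list, and up to 4 calls within 10 Mb of Mapk8 or Mapk9. Other genes named in the text, such as Jun, Cdk1, Edn1, Vcam1 and Lyve1, were chosen after their values were seen. Where other protein-coding genes overlap a locus, reads could be shared (71 of the 248 calls, by GENCODE). For promoters the first RefSeq window of each symbol was used. The comparison and the lists were chosen with earlier results of these data known. The fit was run on simulated data, and no result of that run is used here. Alternatives covered the pseudocount, the FPKM minimum, the libraries fitted, weighting, centring, a mean-variance trend, the replicate block and each library left out.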

Additional observations from a re-analysis of the deposited data

How the results depend on the processing

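The number of calls depended on the settings of the fit and of the call. The 248 calls (90 rose, 158 fell) became 460 (173 and 287) with array weights, 114 (45 and 69) with no FPKM minimum, 59 (28 and 31) with a replicate block, 122 (54 and 68) at a minimum log2 change of 1 and 0 (0 and 0) in the 6 libraries alone. Leaving out 1 library at a time gave 0 to 213 calls, 0 to 78 rises and 0 to 135 falls. The 20 falls of the mitosis list became 32, 9, 13 and 0 with array weights, no FPKM minimum, the replicate block and the 6 libraries, and 0 to 17 with a library left out. The 4 lymphatic falls became 1 with no FPKM minimum, 0 with the replicate block, 0 in the 6 libraries and 2 with a mean-variance trend and no E3KO replicate 1, and 0 to 3 with a library left out. The cause was not tested. Labels give the groups the same replicate numbers, but the isolations came from different mice, and correlations of same-numbered libraries ran from -0.056 to 0.168.

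Mapk8 was at -1.24 with the trend and no E3KO replicate 1, and between -1.24 and -0.27 with a library left out. Mapk9 was at -0.79 with the trend (adjusted p = 0.0464) and between -0.96 and -0.60 with a library left out. Of 63 called named genes none changed direction, which their lack of overlap fixes in advance for the fits with a library left out. Array weights kept 61 of the calls, centring 55, a pseudocount of 0.1 52, the replicate block 19 and E3KO replicate 3 left out 0. Of the named genes that were not called, some changed sign, all between -0.15 and 0.13 with every library except Scgb1a1 (1.22). Erg was at 0.038 with array weights, 0.023 with centring and 0.084 with the trend and no E3KO replicate 1, Itga6 at 0.014 with the last, Hsph1 at 0.012 with centring, and Scgb1a1 at -0.12 and -0.51 with array weights and with the trend and no E3KO replicate 1. With a library left out the ranges were -0.18 to 0.18 for Spag9, -0.031 to 0.26 for Cdh5, -0.019 to 0.21 for Ncstn, -0.090 to 0.26 for Nrp2, -0.18 to 0.084 for Erg, -0.16 to 0.33 for Ccnd1, -0.048 to 0.23 for Bst2, -0.094 to 0.19 for Ptx3, -0.26 to 0.014 for Itga6, -0.066 to 0.16 for Acly, -0.058 to 0.083 for Hsp90ab1, -0.010 to 0.20 for Ctsl, -0.51 to 2.27 for Scgb1a1 and -0.22 to 0.39 for Krt18. The fits with the trend and no E3KO replicate 1, the lists without E3KO replicate 1 or ECtrl replicate 1, and the TTTGAA motif were chosen after seeing the data. The depth of each single library is not in the tables, which limits what can be said of genes of low FPKM.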

Other observations

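The following gene groups were picked among the calls after their values were seen, and carry no test of their own. Of 7 genes of the caveola coat 3 fell in E3KO, beside 1.51% falls over all genes, but the set was picked around these calls. Caveolae are flask-shaped pits of the plasma membrane that are abundant in lung endothelium. Cav1, the main caveolin, was at 674, 725 and 683 FPKM in ECtrl and 415, 410 and 421 FPKM in E3KO (-0.74 ± 0.09, limma adjusted p = 0.0177). Cav2, its partner, was at 109, 107 and 110 FPKM in ECtrl and 43.4, 63.1 and 74.9 FPKM in E3KO (-0.87, adjusted p = 0.0497), and shares a merged locus with Cav1. Prkcdbp, which encodes cavin 3, fell by 1.21 (adjusted p = 0.0493, and 0.0828 without E3KO replicate 1). The cavin genes Ptrf (-0.65, adjusted p = 0.0908) and Sdpr (-0.78, adjusted p = 0.0628) did not pass the test, nor did Ehd2 (-0.04) or Pacsin2 (-0.20).

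Several calls lay side by side in the genome and rose together. Mest, an imprinted gene of the hydrolase fold family, was at 166, 224 and 208 FPKM in ECtrl and 696, 564 and 694 FPKM in E3KO (1.71 ± 0.15, adjusted p = 0.00811), and Copg2, a coatomer subunit at the same merged locus, rose by 1.06 (adjusted p = 0.0177). Other neighbours were the carboxylesterases Ces2e (1.65) and Ces2g (1.64, adjusted p = 0.0592 without E3KO replicate 1), Hoxb6 (1.26) and the merged locus of Hoxb7 and Hoxb8 (1.30), Tmem176a (0.73) and Tmem176b (0.74), Cxx1b (0.92) and Cxx1c (1.20), and Lpar6 (0.90) and Rcbtb2 (1.20), which share a merged locus. Near-identical copies such as the Ces2 and Cxx1 genes can share reads, so their separate values are uncertain. Genes known from myeloid cells also stood among the rises, 7 in number (Aim2, Apoe, Bst1, Clec4d, Lgals3, Naip2 and Tfec), with changes of 0.81 to 1.85. They were picked from the calls that rose, so their shared direction is fixed by the picking. Apoe, Clec4d and Tfec also passed the expression minimum only through their E3KO mean. Lgals3, galectin 3, went from 31.2, 34.7 and 45.7 to 90.4, 78.4 and 92.4 FPKM.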
